A study of Mus musculus with 7 samples.

Results

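Of the 29397 regions of H3K79me2 counted in mouse bone marrow-derived macrophages, 1090 lay over 2 or more protein-coding genes at once. They were taken as the regions on chromosomes 1 to 19 shorter than 30000 bp that overlap the RefSeq spans of at least 2 coding genes on the mouse build mm10. H3K79me2, dimethylation of lysine 79 of histone H3, was measured by chromatin immunoprecipitation and sequencing, and each value is the number of reads counted in a region of 1 library. All macrophages came from C57BL/6 marrow cultured for 7 to 8 days with L929-conditioned medium as the source of M-CSF. During that culture 3 samples received SGC0946 at 1 µM, which inhibits DOT1L, the methyltransferase of H3K79, and 3 received its solvent DMSO, and the samples are described as biological replicates. The growth protocol names both wild-type and knockout animals, and the labels tie neither genotype to these samples and give no age. A sample of input chromatin was not used here.

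DOT1L places H3K79me2 on nucleosomes behind the starting point of transcribed genes, so the mark runs from the start into the gene body and is a sign of active transcription. Many mammalian housekeeping genes sit head-to-head, with starts close together on opposite strands and a shared CpG-rich promoter between them. At such a pair the mark of both genes can merge into a single domain. Where 2 genes end close together (tail-to-tail), or one lies within the other (nested), a domain over both can also come from 1 of them, and a count over a region does not separate the genes beneath it.

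The total count per library was 16735417 to 19520933 with DMSO and 2952679 to 3132235 with SGC0946. All 8 defining macrophage genes of the marker list had a region, against 5 of 24 genes of other blood cells (Lck, Mpo, Klf1, Zbtb46 and Kit) and 2 of 14 of stromal and endothelial cells (Cxcl12 and Runx2). The regions over macrophage genes held 0.137 to 0.144% of the counts with DMSO and 0.143 to 0.149% with SGC0946, those of other blood cells 0.0103 to 0.0106% and 0.00842 to 0.00923%, and those of stromal and endothelial cells 0.00163 to 0.00182% and 0.00236 to 0.00284%. Of these, 2 regions over Zbtb46 and 3 over Runx2 also lay over other coding genes, and a count does not separate them. The part of other cells in the results was not tested. In these bulk samples, fewer cells carrying the mark and less mark per cell cannot be told apart.

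Promoter windows from RefSeq (GRCm38.p6, the assembly named mm10) are given for 4 head-to-head pairs whose starts fall within 1 window, chosen after the values were seen so that they run from a region that kept much of its mark to one that kept little. Each window is 300 bases of the plus strand, from 250 bases before to 50 after the start of the plus-strand gene, and capitals mark matches to the motifs searched, on either strand. The Rhbdd3 window lies at chr11:5099023-5099322, the St7l window at chr3:104864256-104864555, the Psmd13 window at chr7:140882144-140882443 and the Stk36 window at chr1:74601205-74601504.
Rhbdd3 and Ewsr1: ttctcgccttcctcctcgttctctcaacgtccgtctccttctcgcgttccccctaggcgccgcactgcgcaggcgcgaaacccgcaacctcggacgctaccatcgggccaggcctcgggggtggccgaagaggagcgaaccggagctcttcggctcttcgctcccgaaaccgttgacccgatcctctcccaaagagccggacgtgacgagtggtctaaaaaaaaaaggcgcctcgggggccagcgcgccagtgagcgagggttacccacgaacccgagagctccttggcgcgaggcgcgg
St7l and Capza1: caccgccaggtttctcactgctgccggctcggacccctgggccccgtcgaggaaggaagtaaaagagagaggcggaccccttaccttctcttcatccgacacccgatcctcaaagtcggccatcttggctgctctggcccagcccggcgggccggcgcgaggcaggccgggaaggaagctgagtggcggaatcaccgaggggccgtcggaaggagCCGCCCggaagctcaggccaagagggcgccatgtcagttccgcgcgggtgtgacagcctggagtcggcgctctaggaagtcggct
Psmd13 and Sirt3: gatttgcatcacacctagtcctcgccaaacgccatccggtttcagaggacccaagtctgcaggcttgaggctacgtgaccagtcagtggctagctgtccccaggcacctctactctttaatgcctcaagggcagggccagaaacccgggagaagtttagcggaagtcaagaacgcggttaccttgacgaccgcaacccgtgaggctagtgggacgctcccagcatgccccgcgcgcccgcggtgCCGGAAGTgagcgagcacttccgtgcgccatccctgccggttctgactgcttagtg
Stk36 and Rnf25: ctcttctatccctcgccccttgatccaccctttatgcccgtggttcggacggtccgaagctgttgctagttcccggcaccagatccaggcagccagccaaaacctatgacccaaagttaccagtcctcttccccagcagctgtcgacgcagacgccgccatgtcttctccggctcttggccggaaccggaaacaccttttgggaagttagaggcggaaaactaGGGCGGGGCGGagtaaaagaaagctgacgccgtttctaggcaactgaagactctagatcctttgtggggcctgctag
In the window of St7l, the minus-strand start of Capza1 is at base 250, 1 base from the St7l start. The start of Sirt3 is at base 166 of the Psmd13 window, that of Rnf25 at base 193 of the Stk36 window and that of Ewsr1 at base 74 of the Rhbdd3 window. The Psmd13 window holds CCGGAAGT, a motif of ETS family factors, at base 245. The St7l window holds the GC box GGGCGG on the minus strand at base 216, the Stk36 window holds it at bases 224 and 229, where the matches overlap, and the Rhbdd3 window holds none of the motifs searched.

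Most multi-gene regions covered just a pair of genes. Of the 1090, 990 overlapped 2 coding genes, 64 overlapped 3 and 6 overlapped 10 or more. The regions with the most genes, 24 each, lay in the protocadherin gamma cluster on chromosome 18, whose many variable first exons share their last exons so that the annotated spans lie over each other. In the same way 21 regions lay over Ugt1a genes, the glucuronosyltransferases that share their last exons. In all, the regions touched 1912 of 21900 coding genes, and RefSeq gave a strand for 1580 of these through its promoter windows.

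Head-to-head pairs made up the largest class among the regions whose arrangement could be read. There were 409 head-to-head, 118 tail-to-tail, 60 same-strand and 159 nested pairs, 100 regions with 3 or more genes and 244 pairs in which the strand of at least 1 gene was not given. Of the 409 head-to-head regions, 348 held a start of both genes, 41 of 1 gene and 20 of none. Any annotated start of a gene counted here, not just the outermost. In 342 the outermost starts were at most 1000 bp apart. Over all classes, 391 regions held no gene start, where genes without a given strand could not be counted. The second gene was often only touched: its overlap was under 500 bp in 225 regions, with a median of 1407.5 bp.

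In the 348 head-to-head regions with a start of both genes, the cover of each gene was measured. The gene covered less was called the shorter side, with a median of 2184.5 bp against 6529 bp for the other, an order set by the definition. The shorter side reached at least 1000 bp in 229 regions and was under 500 bp in 89. The counts kept with SGC0946, defined as the mean SGC0946 count over the mean DMSO count, had a median of 13.4% where the shorter side reached 1000 bp and 13.3% where it did not. These sides were measured after the values were seen, and the difference was not tested.

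A single region over both starts was the most frequent form of the mark at head-to-head pairs. Starts here are the outermost of each gene. Of 878 pairs of coding genes with starts at most 1000 bp apart, 360 (41.0%) had 1 region over both starts, and 342 of these regions are among the 1090. A region reached both genes without covering both starts in 51 pairs, the genes had separate regions in 180, only 1 gene had a region in 187, and neither had one in 100. The share with 1 region over both starts was 47.4% of pairs at most 300 bp apart and 37.5% at most 2000 bp apart. Among textbook pairs, Hspd1 and Hspe1 (the mitochondrial chaperonin and its cofactor), Ppat and Paics (purine synthesis), Surf1 and Surf2, and Sirt3 and Psmd13 each had 1 region over both starts. Atm and Npat, Tap1 and Psmb9, and Brca1 and Nbr1 had separate regions. Tsc2 and Nthl1, with starts 4 bp apart, had no region, and Mcm4 and Prkdc could not be classed.

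**Figure D1:**
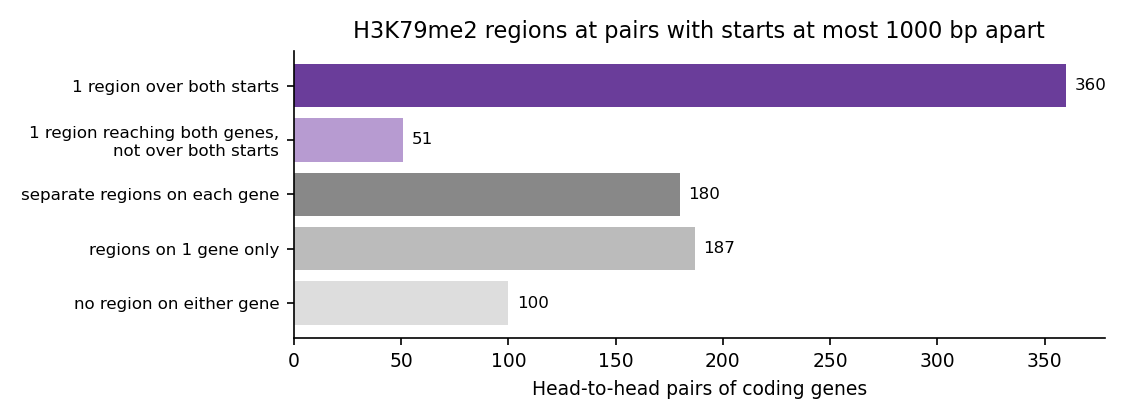
Number of head-to-head pairs of coding genes with starts at most 1000 bp apart (bars, horizontal axis), by the form of the H3K79me2 regions over them. The longest bar is the 360 pairs with 1 region over both starts, and 100 pairs had no region.

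The promoter windows of genes under head-to-head regions were rich in G and C. Their median GC content was 63% with 25 CpG dinucleotides over 796 windows, against 56.33% and 13 over the windows of all 17492 coding genes with one, and 61.33% and 22 over 5858 genes that had only regions over a single coding gene. Motifs were searched on both strands without mismatches. CCGGAAGT (ETS family) was in 15.45% of the head-to-head windows, 5.277% of all windows and 8.911% of those of single-gene regions. AAGATGGCG (YY1) was in 6.784%, 1.915% and 3.448%, and GCGCATGCG (NRF1) in 5.653%, 2.413% and 4.199%. The GC box GGGCGG was in 64.82%, 46.32% and 66.63%, and the cAMP response element TGACGTCA in 3.769%, 2.327% and 3.448%. TATAAA, the element bound by TBP, was in 2.764%, 13.34% and 6.692%. The NF-Y motif CCAAT was in 34.8%, 39.2% and 39.62%. The windows of a pair overlap each other where the starts are close, so the same match can count for both genes. The GC content and CpG counts were added after the values were seen.

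The counts of the multi-gene regions fell with SGC0946. On unscaled counts, edgeR's quasi-likelihood test with Benjamini-Hochberg adjustment over all regions found all 1056 tested members lower at an adjusted p under 0.05 and 0 higher, where 99.7% of all 24895 regions tested were lower and 0.0201% higher. Without the filter on low counts, 1 of 1090 was higher, a 500 bp region over 2610028H24Rik and Ybey with 0 to 10 counts per library. The median member kept 14.1% of its DMSO counts, against 16.1% over all 23367 regions tested for their share and 16.1% over the regions of 1 coding gene. Among the 866 members averaging 50 counts or more, the percentage kept ran from 8.22% to 64.7%. The labels name no spike-in chromatin, so how far the total fall reflects the chromatin and how far library making cannot be told apart here.

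The second test asked which regions lost more or less than their library as a whole, by fitting each region's share of the library's total count. Of 1041 members tested by edgeR, 507 had a lower share with SGC0946, 96 a higher one and 438 were not called. The background over all regions was 23.3% lower and 6.16% higher, and the members were at 48.7% and 9.22%. That background holds many short regions: of 11412 single-gene regions under 2 kb tested, 1.28% were lower. Members are set beside single-gene regions of like length below. The calls were split with 15.92% of them higher. With edgeR it was 23.16% with TMM factors (113 higher, 375 lower) and 23.67% with DESeq2 size factors (107 higher, 345 lower). It was 28.84% with DESeq2's Wald test (107 higher, 264 lower), which also used its own size factors and no count filter, and moved to 1.01% when libraries were scaled on the 25% of regions sparsest with DMSO (9 higher, 882 lower). The median log2 change over all regions was -0.09 in share, 0.09 with DESeq2's Wald test and -0.94 with that sparse scaling. A higher or lower share is called against no change under each scaling, not against these medians. In share, the median was -0.28 over the members tested and -0.30 over the 11055 regions averaging 50 counts or more, which include 866 of the members.

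By arrangement, head-to-head regions had the lowest median kept. It was 13.4%, and of 405 tested 249 were lower and 34 higher in share. The median was 15.7% over tail-to-tail regions (34 lower, 15 higher of 112), 15.2% over same-strand regions (27 and 6 of 58), 15.4% over nested regions (35 and 5 of 137), 14.5% over regions with 3 or more genes (50 and 10 of 96) and 13.96% over pairs without a known strand (112 and 26 of 233). Head-to-head regions holding any annotated start of both genes kept a median of 13.4%, against 14.7% for the 61 that did not. The classes also differ in length, with medians of 8122 bp for head-to-head, 3944 bp for tail-to-tail and 1786 bp for nested regions, and neither the differences between classes nor the part of length in them was tested. In the length classes used below, head-to-head regions kept a median of 17.3% under 2 kb and 13.3% from 2 to 5 kb. From 5 to 10, 10 to 20 and 20 to 30 kb they kept 13.2%, 13.5% and 13.9%. Single-gene medians in the same order were 19.05%, 14.4%, 13.5%, 13.2% and 13.1%.

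**Figure D2:**
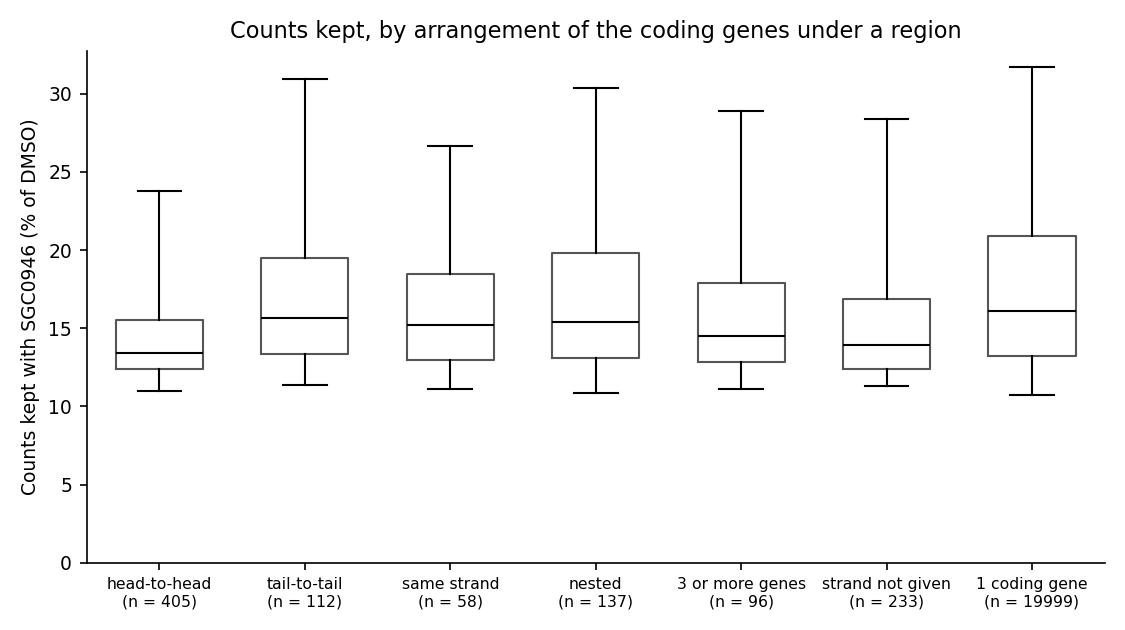
Counts kept with SGC0946 as a percentage of DMSO (vertical axis) for regions by the arrangement of their coding genes, with regions over 1 coding gene at the right; n is the number of regions tested. Lines are medians, boxes the 25th to 75th percentile, whiskers the 5th to 95th percentile; the head-to-head median of 13.4% is the lowest, and the boxes of all classes overlap. The classes are not matched for length.

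Set beside single-gene regions of like length, the multi-gene regions had similar medians. Multi-gene regions are long, with a median of 6076.5 bp against 964 bp. Under 2 kb the median kept was 18.95% for members and 19.05% for regions of 1 gene, from 2 to 5 kb 13.6% and 14.4%, from 5 to 10 kb 13.4% and 13.5%, from 10 to 20 kb 13.8% and 13.2%, and from 20 to 30 kb 14.3% and 13.1%. The DMSO read density, in counts per kb, was higher over multi-gene regions from 2 to 20 kb: 95.01 against 60.74 from 2 to 5 kb, 122 against 96.4 from 5 to 10 kb and 156 against 138 from 10 to 20 kb. It was 39.4 against 36.0 under 2 kb and 164 against 166 from 20 to 30 kb. Lower share was called in 2.97% of members and 1.28% of single-gene regions under 2 kb, and in 44.0% and 28.1% from 2 to 5 kb. From 5 to 10 kb it was called in 65.8% and 61.7%. From 10 to 20 kb these were 66.4% and 72.5%, and from 20 to 30 kb 59.0% and 72.4%. These length classes were chosen after the values were seen and the differences were not tested.

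**Figure D3:**
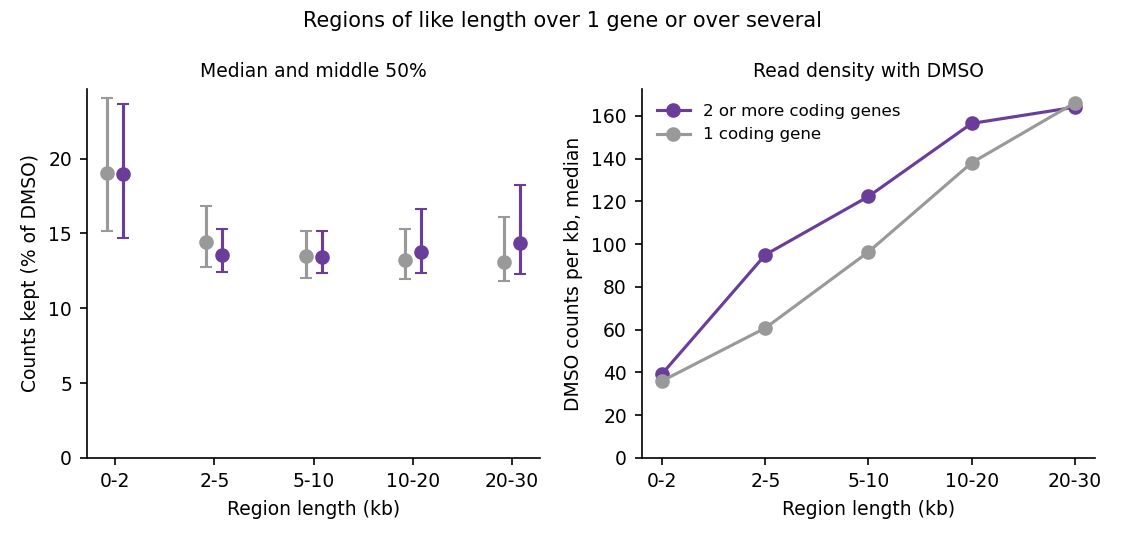
Left, median counts kept with SGC0946 (points) and the 25th to 75th percentile (bars) by region length; right, median DMSO counts per kb. Purple marks regions over 2 or more coding genes and grey regions over 1; the kept medians lie between 13.1% and 19.05% in both, and the densities rise with length in both.

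Among multi-gene regions averaging 50 counts or more, the one that kept the most lay over the RNA-binding protein gene Hnrnpf, followed by regions over Rab1a, B2m and Ewsr1. The most kept by a single-gene region of that average was 79.7%. The region over Hnrnpf, whose product regulates splicing, and the nested 4933440N22Rik (chr6:117906885-117923869) had 7398, 7960 and 8824 counts with DMSO and 5344, 5070 and 5224 with SGC0946. All SGC0946 libraries lay below all DMSO libraries, yet 64.7% was kept and the share rose by 1.92 ± 0.04 (log2 fold change ± SE, edgeR adjusted p = 5.2e-52). Rab1a, a small GTPase of transport from the endoplasmic reticulum to the Golgi, and the centrosomal Cep68 lie tail-to-tail under the longest member (chr11:20201187-20230972). It had 12239, 12788 and 14303 counts with DMSO and 9017, 8100 and 8178 with SGC0946, and kept 64.3%, a share higher by 1.91 ± 0.03. Of that region, 25445 bp lay over Rab1a and 3936 bp over Cep68.

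B2m, the light chain of MHC class I, lies wholly inside the span of Patl2 on the other strand. Their region (chr2:122147359-122154956) had 3031, 3171 and 3357 counts with DMSO and 1759, 1491 and 1607 with SGC0946, so 50.8% was kept. Ewsr1, an RNA-binding protein, and Rhbdd3 have annotated starts within the first window printed above. Their region (chr11:5078345-5099489) had 5726, 5976 and 6624 counts with DMSO and 3063, 2810 and 2955 with SGC0946. It kept 48.2%, the most of any head-to-head region averaging 50 counts or more, and 20763 bp of it lay over Ewsr1 against 1208 bp over Rhbdd3. The others of the 8 highest were over Cnbp, a nucleic acid-binding protein, with Gm44064 (47.3% kept), the splicing repressor Ptbp1 with Plppr3 (46.4%), the Golgi coat GTPase Arf1 with 2310033P09Rik (44.1%) and Zfand5 with LOC115489044 (39.3%). All 8 were also higher in share with TMM factors, DESeq2 size factors, DESeq2's Wald test and scaling on the regions sparsest over all 6 libraries. Scaled on those sparsest with DMSO, 7 were higher and the Zfand5 region was not called.

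The regions that lost the most were smaller, and several only touched their second gene. Timm10, a chaperone of mitochondrial protein import, lies head-to-head with Smtnl1, of which the region (chr2:84826825-84829547) covered 23 bp. It had 212, 203 and 254 counts with DMSO and 24, 15 and 16 with SGC0946, so 8.22% was kept and the share fell by 1.05 (SE 0.19, edgeR adjusted p = 6.2e-06). The region of Hsdl1 and Dnaaf1 (chr8:119568082-119575467) had 1125, 961 and 1250 counts with DMSO and 97, 107 and 86 with SGC0946, or 8.69% kept. Rnf25, a ubiquitin ligase, and Stk36 share the last promoter printed above, and their region (chr1:74599989-74601503) had 128, 125 and 143 counts with DMSO and 15, 13 and 9 with SGC0946. It kept 9.34% and its share fell by 0.87 (edgeR adjusted p = 0.0023), a call that DESeq2's Wald test did not make (adjusted p = 0.062).

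Blcap and the imprinted Nnat, which lies in an intron of Blcap, had a region (chr2:157551115-157566545) with 1912, 1861 and 2145 counts with DMSO and 210, 202 and 178 with SGC0946. Its 9.97% kept contrasts with the 64.7% of the Hnrnpf region, which is also a nested pair. The others of the 8 lowest were over 2310022A10Rik with Gm45975 (8.59% kept), the tryptophanyl-tRNA synthetase Wars with Wdr25 (9.57%), Utp14b with the acyl-CoA synthetase Acsl3 (10.1%) and Wdr46 with B3galt4 (10.1%). All 8 were lower in share under the 4 other scalings tried with edgeR, and 7 under DESeq2's Wald test.

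**Figure D4:**
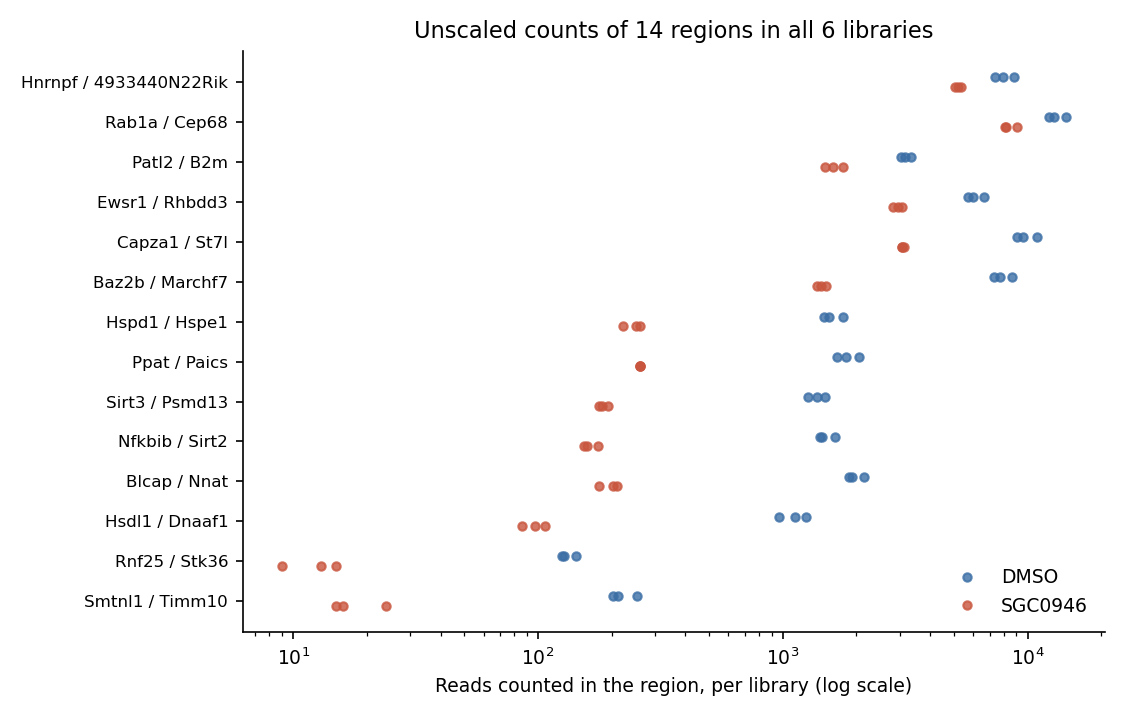
Reads counted in 14 of the named regions (horizontal axis, log scale), with 1 point per library, DMSO in blue and SGC0946 in red. The groups do not overlap in any region shown; they lie closest in the Hnrnpf and Rab1a regions and farthest apart in the Timm10 and Hsdl1 regions.

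The regions of known bidirectional pairs kept 13.4% to 16.2%, near the median of 14.1% over the multi-gene regions. The Hspd1 and Hspe1 region (chr1:55080188-55091086) had 1472, 1543 and 1771 counts with DMSO and 262, 251 and 222 with SGC0946, or 15.4% kept. Its share did not pass the test (log2 change -0.15, edgeR adjusted p = 0.077), but passed without DMSO replicate 1 (adjusted p = 0.037) and among regions averaging 50 counts or more (0.040). Ppat and Paics (chr5:76939452-76958818) had 1659, 1808 and 2050 counts with DMSO and 261, 262 and 260 with SGC0946, or 14.2% kept. Their share fell by 0.27 (edgeR adjusted p = 0.00054), a call lost with TMM factors (0.10). Sirt3, a mitochondrial deacetylase, and Psmd13, of the proteasome lid, had 1266, 1375 and 1494 counts with DMSO and 182, 193 and 178 with SGC0946 (chr7:140877700-140887828), or 13.4% kept. Their share fell by 0.35 (edgeR adjusted p = 5.8e-05), a call lost with DESeq2's Wald test (0.067). The Surf region (chr2:26899074-26920872), over Surf6, Med22, Rpl7a, Surf1, Surf2 and Surf4, kept 16.2% and was not called.

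The head-to-head regions with the highest counts ranged widely. Capza1, which caps actin filaments, and St7l had 9090, 9546 and 10905 counts with DMSO and 3122, 3067 and 3080 with SGC0946 (chr3:104840941-104869044), so 31.4% was kept. Dido1 and Gid8 (chr2:180684935-180713746) had 7426, 7785 and 8718 counts and then 2299, 2041 and 2151, or 27.1%. Baz2b and Marchf7 (chr2:60209538-60235402) had 7278, 7694 and 8644 and then 1498, 1440 and 1375, or 18.3%, and their share was not called (edgeR adjusted p = 0.060). Of these, Dido1 and Baz2b had negative log2 changes (-0.15 and -0.73) when scaled on the regions sparsest with DMSO.

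At the length limit, the longest members were the Rab1a and Cep68 region of 29786 bp and that of the BMP receptor gene Acvr1 with Upp2, of 29708 bp, which kept 64.3% and 10.3%. The shortest multi-gene regions beyond it were those of Hmbox1 and Ints9, 30231 bp, and of Erp44 and Invs, 30350 bp, which kept 12.2% and 12.4%.

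The gene lists were read in the test of share, where the backgrounds are 6.16% higher and 23.3% lower over all regions and 9.22% and 48.7% over the multi-gene regions. No difference between a list and either background was tested. Splicing factor regions were mixed: of 22 tested, 11 were higher, 8 lower and 3 not called, with a median of 18.5% kept against 16.1% over all regions tested. Besides Hnrnpf, the region of Hnrnpd with 4930524J08Rik kept 34.6%, that of Hnrnpu with Cox20 31.4% and that of Hnrnpll with 4933407O12Rik 23.2%. The 11 higher calls became 6 when scaled on the regions sparsest over all 6 libraries and 1 on those sparsest with DMSO, where 14 were lower.

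Oxidative phosphorylation regions mostly fell in share: of 30 tested, 22 were lower and 2 higher, with a median of 13.5% kept. DESeq2's Wald test called 10 of them lower and 2 higher. Cox4i1, a subunit of cytochrome oxidase, shares a region with Emc8 and Gm27021 that kept 11.7%, and Atp5c1, of ATP synthase, shares one with Kin that kept 15.7%. The Tcirg1 and Ndufs8 region, over a proton pump subunit and a complex I subunit, kept 19.9% and was higher by 0.22 (edgeR adjusted p = 0.00017), though its log2 change was -0.60 when scaled on the regions sparsest with DMSO.

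Of 25 mitochondrial ribosomal protein regions 13 were lower and 0 higher, with a median of 14.01% kept. TMM factors gave 6 lower and 2 higher, DESeq2 size factors 6 and 1, and DESeq2's Wald test 3 and 0. Of 22 cytosolic ribosomal protein regions 6 were lower and 2 higher, with a median of 16.1%. TMM factors gave 3 lower and 4 higher, DESeq2 size factors 2 and 4, DESeq2's Wald test 0 and 2, and scaling on the regions sparsest with DMSO 21 and 0. Of 7 aminoacyl-tRNA synthetase regions 6 were lower and 0 higher (median 13.0%), of 11 DNA repair regions 7 were lower and 1 higher (13.4%), of 10 RNA polymerase II and Mediator regions 6 were lower and 0 higher (13.5%), of 14 proteasome regions 3 were lower and 1 higher (14.9%), and of 25 zinc finger regions 11 were lower and 1 higher (14.2%). DESeq2's Wald test called fewer lower: 3 of the synthetase regions, 4 of DNA repair, 2 of RNA polymerase II and Mediator, 2 of the proteasome and 6 of the zinc finger regions. Of the lists with 0 higher by edgeR, the Wald test also gave 0, while TMM factors and DESeq2 size factors each gave 1 higher for RNA polymerase II and Mediator. At an unadjusted edgeR p under 0.05 there were 2 higher among the mitochondrial ribosomal protein regions, 0 among those of the synthetases and 1 among those of RNA polymerase II and Mediator. The higher DNA repair call was Pcna, the sliding clamp, with Tmem230 (23.0% kept), and among the lower ones were Lig4, the ligase of end joining, with Abhd13 (10.7%) and Fancd2 with Emc3 (12.3%).

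Macrophage and inflammatory genes under multi-gene regions were set beside all coding genes, of which 1912 of 21900 lay under one. Of 28 macrophage identity genes 2 did, and of 30 inflammatory response genes, 19 of which had any region, 1 did. The differences from all coding genes were not tested. The region of Cd68, a lysosomal glycoprotein of macrophages, with Eif4a1 and Senp3 (chr11:69662887-69682160) had 3701, 3896 and 4405 counts with DMSO and 1201, 1099 and 1097 with SGC0946. It kept 28.3% and its share rose by 0.73 (edgeR adjusted p = 2.8e-23), and 8975 bp of it lay over Senp3, 5488 bp over Eif4a1 and 1958 bp over Cd68. The region of the signalling adaptor Tyrobp with Hcst (chr7:30413205-30419212) had 1229, 1339 and 1480 counts and then 286, 265 and 279, or 20.5% kept, with a share higher by 0.26 (edgeR adjusted p = 0.00084). On the scaling from regions sparsest with DMSO both had negative log2 changes, -0.10 and -0.57. The region of Nfkbib, an inhibitor of NF-kappaB, with Sirt2 kept 10.8% and was lower, and that of the cholesterol synthesis gene Tm7sf2 with Znhit2 kept 13.5% and was not called (edgeR adjusted p = 0.072).

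Genes of other cell types were met in 2 places. Zbtb46 lay under a region with Arfrp1 and Zgpat that kept 12.5% and a short one with Zgpat that kept 21.4% of 27 to 38 counts. The first (chr2:181362496-181376961) holds the outermost starts of Arfrp1 (181365404) and Zgpat (181364931), while that of Zbtb46 is at 181493262. Runx2 and Supt3, whose spans overlap, lay under 3 short regions with 19 to 90 DMSO counts per library that kept 17.97%, 27.3% and 29.0%. The last of these was higher in share (edgeR adjusted p = 0.011), a call lost without SGC0946 replicate 1 (0.16). None of the 3 held a start of either gene. They lie between bases 44777806 and 44785230 of chr17, with the outermost start of Supt3 at 44777118 and that of Runx2 at 44814797. Which gene the counts belong to was not tested.

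Among members averaging 50 counts or more, the percentage kept was highest in the class of highest read density. When these 866 members were ranked into 10 classes of like size by DMSO counts per kb, the median kept was 15.0% in the sparsest class, fell to 12.5% in the middle and reached 21.3% in the densest, at 243 to 475 counts per kb. In the densest class 54 of 87 regions were higher in share and 9 lower, and the 6 sparsest classes held 0 higher calls. Scaled on the regions sparsest with DMSO, the densest class held 7 higher and 47 lower calls. Spearman's rho between density and percentage kept was 0.29 over these 866 regions, -0.042 over all 1041 members tested and -0.18 over 9006 single-gene regions averaging 50 counts or more. All share the same 6 libraries, and the DMSO count enters both measures.

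Single-gene regions in the same density classes had a median of 15.2% in the sparsest class, 12.2% in the fifth and 19.6% in the densest (328 higher and 114 lower of 595), but 3069 of the 9006 fell in the sparsest class. They too had few higher calls in the 6 sparsest classes: 45 of 3069, 4 of 1240, 3 of 819, 3 of 681, 2 of 558 and 5 of 460. The densest class of the multi-gene regions held 31 of the 380 head-to-head and 20 of the 83 tail-to-tail regions. The density classes were chosen after the values were seen.

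**Figure D5:**
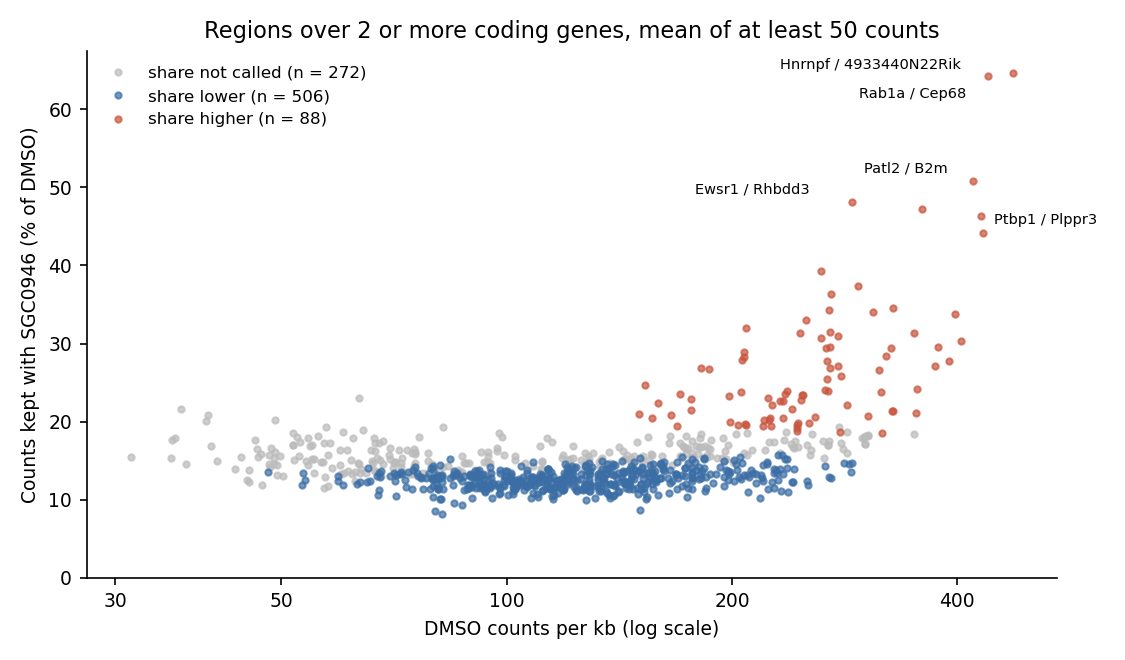
Counts kept with SGC0946 as a percentage of DMSO against DMSO counts per kb (log scale), with 1 point per multi-gene region averaging 50 counts or more, coloured by its call in share of library. The 88 regions with a higher share lie toward the dense side, and the Hnrnpf and Rab1a regions stand highest.

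Summed together, the 1090 regions held a slightly larger part of the libraries with SGC0946, a difference that rested on a few regions and on how membership was defined. They held 7.71, 7.82 and 7.76% of the counts with DMSO and 8.27, 8.13 and 8.28% with SGC0946, a difference of 0.46 percentage points. Without the Rab1a and Cep68 region the difference was 0.26, and without that and the Hnrnpf and Arf1 regions it was 0.048. It turned to -0.13 when a gene counted only where it overlapped 25% of the region. That rule also drops the Rab1a, Hnrnpf and Arf1 regions. Their second genes covered 3936 of 29786 bp, 1321 of 16985 bp and 2376 of 21036 bp. Head-to-head regions held less with SGC0946, 3.42 ± 0.0334% and then 3.30 ± 0.00995% (SD, n = 3), with all SGC0946 libraries below all DMSO libraries. Single-gene regions also held less, 54.50 ± 0.0618% and then 52.49 ± 0.484% (SD, n = 3), with the libraries apart in the same way. Of their summed DMSO counts, head-to-head regions kept 16.49% and single-gene regions 16.45%. Tail-to-tail regions held 0.783 ± 0.00521% with DMSO and 1.17 ± 0.0308% with SGC0946 (SD, n = 3), and 0.658% and 0.757% without the Rab1a and Arf1 regions. The classes ran from -0.12 points for head-to-head to 0.38 for tail-to-tail, with -0.011 for regions of 3 or more genes, 0.011 for same-strand, 0.061 for pairs without a known strand and 0.13 for nested regions. The exclusions of named regions were chosen after the values were seen.

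Many of the genes carried further regions. Of the 1090 regions, 820 had another region over the same genes, and 501 could be compared with them. The multi-gene regions kept a median of 13.9% and the others over the same genes 14.9%, and the multi-gene region kept less in 295 cases and more in 206. This comparison was added after the values were seen and was not tested.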

How the data were processed

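H3K79me2 ChIP-seq counts of 3 DMSO and 3 SGC0946 libraries were analysed, and the 1 input sample was not used. The authors deposited whole-number read counts in 29397 regions, which show no scaling. The submitters' processing notes name mm10 and, in no stated role, R 3.6.3, ChIPseeker 1.20.0, bedtools 2.27.0, HOMER 4.11.1 and HISAT2. The caller, the counter and any removal of duplicate reads are not given in the sources used here, and each could change the counts.

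Starts were read as zero-based and are printed 1-based. Genes are RefSeq spans of GRCm38.p6, without exons, and strands come from 17492 promoter windows. A gene counts from 1 bp of overlap. For 10629 windows the start is the outermost of the gene's span, so other starts are of inner transcripts.

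All regions were fitted with edgeR 4.0.16 in R 4.3.3 (filterByExpr, quasi-likelihood F test, Benjamini-Hochberg, threshold 0.05), once on shares (library size the total count, no further factor) and once with equal library sizes. The SE is the size of the log2 fold change over the root of F. DESeq2 1.42.0 was an alternative, and its adjusted p stayed NA where it gave none. The fit was tested on simulated data. Tables and figures used Python 3.11.15, pandas 2.3.3, numpy 2.4.6 and matplotlib 3.10.9. No pair of libraries of a group agreed within counting noise (chi-square per degree of freedom 1.32 to 2.38), so none was taken as a repeat deposit; that they are biological replicates is the submitters' statement.

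The members, gene lists and tests were chosen with earlier results of these data known. Regions were named by rule: the 3 highest DMSO counts per arrangement; the 8 highest and 8 lowest called fold changes among regions averaging 50 counts or more whose groups do not overlap; known pairs; the most genes; the length limit; any region higher in unscaled counts; and up to 4 per list. The text describes the main ones.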

Additional observations from a re-analysis of the deposited data

How the results depend on the processing

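The plan named a scaling on the 25% of regions with the fewest counts per kb, without saying in which libraries. It was first run with regions ranked by DMSO counts, which gave 9 members higher and 882 lower in share. After that result was seen, since such a ranking favours regions that happen to be low with DMSO, a ranking over all 6 libraries was added, which gave 43 higher and 564 lower. Neither is the reported fit. Of the 9 regions higher under the first, 7 are among the 8 highest described above, and Ppcs with Zmynd12 and Draxin with Mad2l2, named after their values were seen, had 1 to 10 counts per library.

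In 1106 comparisons of 80 named regions with an alternative, 990 kept direction and call, 73 lost the call, 22 gained one and 21 changed sign. Ranked by DMSO, the log2 change of share turned to -0.79 for Slc16a4 and Rbm15, -0.73 for Baz2b and Marchf7, -0.70 for Emc4 and Katnbl1 (-0.047 when ranked over all 6 libraries), -0.63 for Zfp706, -0.60 for Tcirg1 and Ndufs8, -0.57 for Tyrobp, -0.42 for Psmd8, -0.41 for Pcna, -0.37 for Hnrnpll, -0.34 for Mycbp and Rragc, -0.33 for Nectin4 and Arhgap30, -0.15 for Dido1, -0.11 for Atf5, Nup62 and Il4i1b, -0.098 for Cd68, -0.086 for Hexa and Tmem202, -0.037 for Son and Donson, -0.78 and -0.087 for the Runx2 and Supt3 regions and -0.74 and -0.69 for the protocadherin gamma regions.

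DESeq2's Wald test called 264 members lower. Counting a gene only where it overlapped 25% of the region left 615 members tested for share, of which 42 were higher and 267 lower, and 630 lower in unscaled counts, and the difference in summed share became -0.13 percentage points. It was 0.55 with a 500 bp overlap, 0.26 without the Rab1a and Cep68 region and 0.048 without that and the Hnrnpf and Arf1 regions. Without a count filter 1 member was higher in unscaled counts. The pairs with 1 region over both starts were 47.4% at 300 bp and 37.5% at 2000 bp. Leaving out each library in turn, the median kept ran from 13.7% (without DMSO replicate 1) to 14.9% (without DMSO replicate 3). The percentage kept is taken from unscaled counts, and the totals of DMSO replicates 1, 2 and 3 were 16735417, 16991959 and 19520933. The causes of these shifts, beyond the smaller sets, were not tested. With the replicate number as a block, 95 members were higher and 483 lower in share. The sample titles carry the same replicate numbers in both groups and do not say what the numbers stand for. The numbers were not taken as pairs in the reported fit. Same-numbered libraries had correlations of 0.00996, -0.114 and -0.0133 of their deviations from the group means. With 3 libraries per group, such correlations cannot decide whether the libraries are paired. The lowest counts limit the short regions: 1041 of 1090 members passed the filter for share and 1056 for unscaled counts.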
